A study of Mus musculus with 24 samples.

Results

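Transcripts of 8 complement genes (C1qa, C1qb, C1qc, C3, C4b, Cfb, C3ar1 and C5ar1) were examined in epididymal white fat, a visceral depot of male mice. A gene was measured by the probe set paired with it alone in the platform annotation, taking the one with the highest mean where there were several. By that rule 7 of the 8 genes were measured, each by 1 probe set, among 19938 named genes in all. C3 was not analysed here, since the platform annotation paired no probe set with C3 alone. The 24 mice were wild-type C57Bl/6 males that received 1 of a pair of isocaloric diets with 45% of energy from fat for 11 weeks, starting at 11 weeks of age. The fat was menhaden fish oil, a source of omega-3 fatty acids of marine origin, or lard, with mostly saturated and monounsaturated ones. On each diet 6 mice were conventional, with a microbiota, and 6 were germ-free. All mice were fasted for 4 h before sampling, and each gave 1 one-colour Affymetrix array, so that p-values measure the spread between mice. No group received a low-fat diet, and no cell type was sorted from the depot. In whole tissue, fewer cells of a type and less RNA per cell cannot be told apart. Whether conventional and germ-free mice came from 1 colony is not given in the sources used here, so status and colony cannot be told apart.

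Complement is a cascade of blood and tissue proteins that marks surfaces for removal and calls in leukocytes. C1q, built from the A, B and C chains that C1qa, C1qb and C1qc encode, binds antibody complexes and dying cells and starts the classical pathway, in which C4 and C2 form an enzyme that splits C3. Factor B, encoded by Cfb, forms the corresponding enzyme of the alternative pathway. Small fragments released from C3 and C5 act on the receptors encoded by C3ar1 and C5ar1. Most plasma complement is made by the liver, whereas C1q comes mainly from macrophages and related myeloid cells; adipose tissue also makes complement proteins.

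Promoter sequences are shown for 4 of the 5 genes whose transcripts differed by diet in both kinds of mice. They run from 250 bases before the annotated start to 50 bases after it, 5′ to 3′, and are credited to RefSeq (GRCm38.p6), whose table held a promoter for 5 of the 8 genes. Capitals mark a match to a searched motif.
C1qb, chr4:136886151-136886450, minus strand: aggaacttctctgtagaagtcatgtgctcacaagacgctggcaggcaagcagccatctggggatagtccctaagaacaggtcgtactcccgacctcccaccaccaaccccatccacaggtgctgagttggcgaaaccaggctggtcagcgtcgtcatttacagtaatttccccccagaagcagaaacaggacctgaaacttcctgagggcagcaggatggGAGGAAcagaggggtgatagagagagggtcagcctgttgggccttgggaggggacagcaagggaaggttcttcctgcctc
C1qc, chr4:136892865-136893164, minus strand: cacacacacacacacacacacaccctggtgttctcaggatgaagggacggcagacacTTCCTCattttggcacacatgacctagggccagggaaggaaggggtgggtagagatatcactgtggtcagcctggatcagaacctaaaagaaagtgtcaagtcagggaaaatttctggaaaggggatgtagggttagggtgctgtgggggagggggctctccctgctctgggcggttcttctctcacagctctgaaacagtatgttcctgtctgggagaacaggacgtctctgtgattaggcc
C3ar1, chr6:122856108-122856407, minus strand: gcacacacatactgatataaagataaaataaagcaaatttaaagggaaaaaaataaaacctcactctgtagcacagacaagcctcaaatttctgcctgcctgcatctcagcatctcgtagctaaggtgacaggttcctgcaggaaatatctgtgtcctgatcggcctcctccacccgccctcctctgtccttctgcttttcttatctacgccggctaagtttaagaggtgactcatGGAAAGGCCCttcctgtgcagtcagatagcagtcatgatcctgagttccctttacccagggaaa
C5ar1, chr7:16259289-16259588, minus strand: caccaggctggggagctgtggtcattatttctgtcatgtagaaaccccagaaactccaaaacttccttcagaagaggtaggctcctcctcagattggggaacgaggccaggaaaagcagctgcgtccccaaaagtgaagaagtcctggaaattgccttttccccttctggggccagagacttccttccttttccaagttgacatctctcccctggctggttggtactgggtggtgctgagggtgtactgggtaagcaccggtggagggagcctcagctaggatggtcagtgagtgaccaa
The motifs were searched on both strands. GAGGAA, a core bound by the myeloid factor PU.1, was found in C1qb, starting 30 bases before the start, and as TTCCTC in C1qc, starting 193 bases before it. It is held by 28.3% of 32851 promoters of the same length. The motif GGGNNNTTCC, of the type bound by NF-kappaB, was found on the other strand in C3ar1, starting 14 bases before the start, and is held by 5.56% of promoters. Neither TTCNNNGAA (8.3% of promoters), of the type bound by STAT factors, nor GAAANNGAAA (3.44%), of the interferon response type, was found in these 4 windows. A match is a description of the letters, and none of these motifs was found in the C5ar1 window. Whether these genes share control was not tested.

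Signals were log2 values from 2.19 to 14.59, with array medians from 7.09 to 7.20 and, within a group, pairwise array correlations from 0.979 to 0.995. The adipocyte hormone Adipoq lay between 12.60 and 13.75 over the 24 mice, so this defining adipocyte marker was present in each of them. Some arrays stood apart in markers of other tissues. The mean of 12 liver transcripts was high in germ-free mice on fish oil, 9.24 ± 0.62 log2 (SD, n = 6), with all 6 mice at 8.41 or more. Conventional mice had 6.99 ± 0.71 on fish oil and 7.42 ± 0.65 on lard, and germ-free mice on lard had 6.96 ± 0.66. The liver product Alb had a group mean of 12.31 there and of 8.53 to 9.80 in the other groups. The mean of 10 intestinal epithelium transcripts was raised in 3 germ-free mice on lard, at 10.03 (mouse 4), 6.74 (mouse 5) and 6.60 (mouse 2), and lay from 5.53 to 6.10 in the other 21 mice. Macrophage transcripts (12 markers) averaged 11.46 and 11.45 in lard-fed conventional mice 5 and 6, against 10.77 to 11.03 in the other 4 mice of that group.

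The first question was how the fat source changed complement transcripts in conventional mice. With lard all 7 measured genes were higher than with fish oil, from 1.27-fold for Cfb to 2.70-fold for C5ar1. Of all genes 31.0% passed the same threshold in this comparison (limma, adjusted p under 0.05), and 15.4% passed it in the direction of lard. The median log2 difference was 0.99 over the 7 genes and -0.04 over all genes. For 6 of the 7, all but Cfb, the diets did not overlap, against 14.6% of all genes (8.01% with lard higher). In germ-free mice 5 of the 7 were higher with lard, C1qa, C1qb, C1qc, C3ar1 and C5ar1, and none was lower; 47.5% of all genes passed, 20.4% towards lard. The median was then 0.91 over the 7 genes and -0.08 over all genes. The diets did not overlap for 4 of the 7 in germ-free mice (C1qb, C1qc, C3ar1 and C5ar1), against 24.5% of all genes (13.4% with lard higher).

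**Figure D1:**
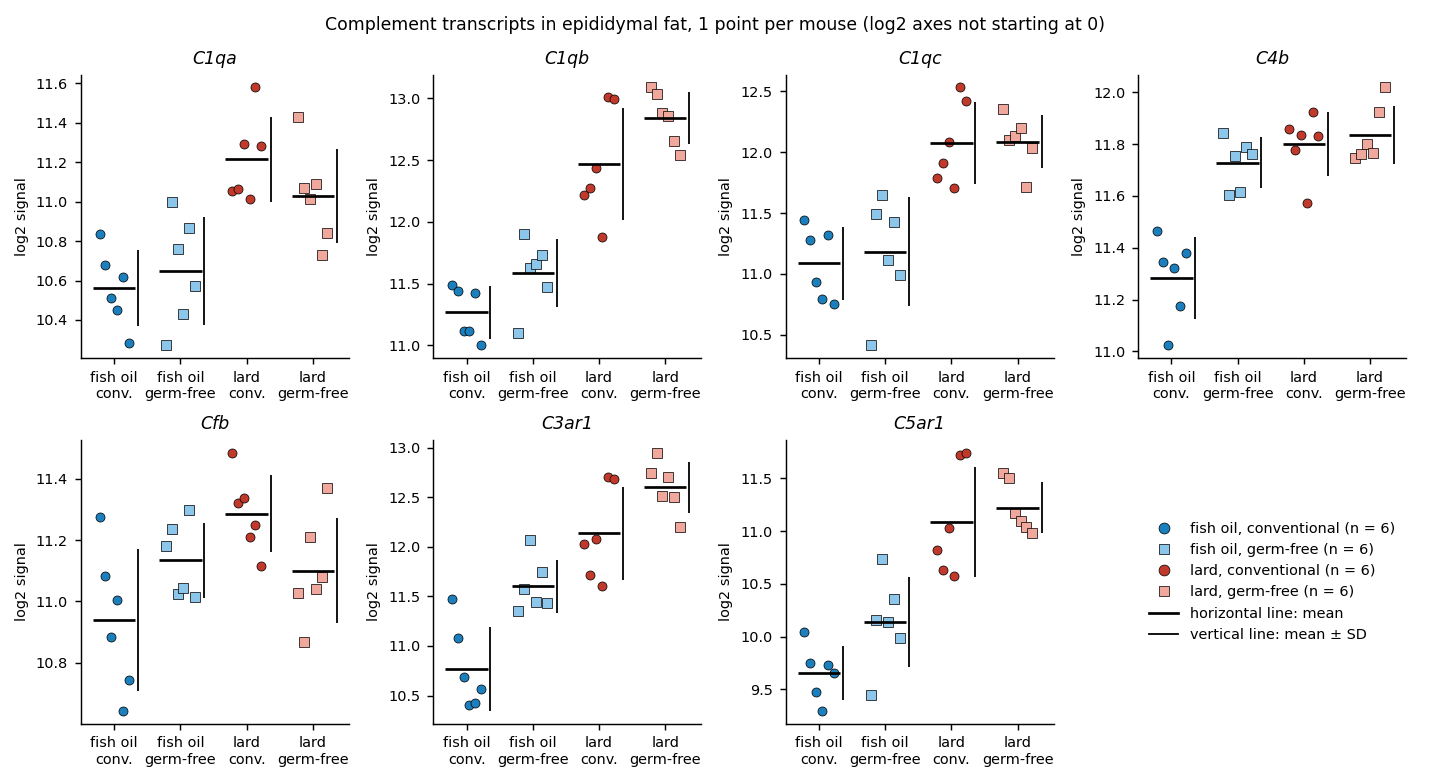
Log2 signal of the 7 measured complement genes in each mouse, 1 panel per gene, by diet and bacterial status (conv., conventional; 6 mice per group; horizontal line, mean; vertical line, mean ± SD; axes do not start at 0). C1qb, C1qc, C3ar1 and C5ar1 lie higher in lard-fed mice of either status, whereas C4b is low in the fish oil-fed conventional mice, from 11.02 to 11.46, against 11.57 or more in all other mice.

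The C1q chains were examined first. C1qb, the B chain, ranged from 11.00 to 11.49 log2 (median 11.27) in fish oil-fed conventional mice, from 11.10 to 11.90 (11.65) in germ-free mice on fish oil, from 11.88 to 13.01 (12.36) in lard-fed conventional mice and from 12.54 to 13.09 (12.87) in lard-fed germ-free mice. Within each status every lard-fed mouse was above every fish oil-fed mouse, and lard-fed conventional mice 5 and 6 were the highest of their group, at the level of the lard-fed germ-free mice. The diet difference was 1.20 ± 0.16 (SE; 95% confidence interval 0.87 to 1.54; limma adjusted p = 5.1e-06) in conventional mice, or 2.30-fold. In germ-free mice it was 1.26 ± 0.16 (0.92 to 1.59; limma adjusted p = 2e-06), or 2.39-fold. C1qc, the C chain, ranged from 10.75 to 11.44 (median 11.10) and from 10.41 to 11.65 (11.27) in conventional and germ-free mice on fish oil, and from 11.71 to 12.53 (11.996) and from 11.71 to 12.35 (12.12) on lard. The lowest lard-fed mouse of each status again exceeded the highest fish oil-fed mouse of that status. C1qc differed by diet by 0.99 ± 0.18 (0.62 to 1.35; limma adjusted p = 0.00014) in conventional mice and by 0.91 ± 0.18 (0.54 to 1.27; 0.00024) in germ-free mice.

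C1qa, the A chain, differed less. Its levels ran from 10.28 to 10.84 (median 10.56) and from 10.27 to 11.00 (10.66) with fish oil in conventional and germ-free mice, and from 11.01 to 11.58 (11.17) and from 10.73 to 11.43 (11.04) with lard. The diets did not overlap in conventional mice and overlapped in germ-free mice. The difference was 0.65 ± 0.13 (0.39 to 0.91; limma adjusted p = 0.00029) in conventional and 0.38 ± 0.13 (0.12 to 0.64; 0.017) in germ-free mice. The germ-free call ended without fish oil-fed germ-free mouse 1 (0.30, adjusted p = 0.051) or without lard-fed germ-free mouse 1 (0.30, adjusted p = 0.053), and with quantile normalization repeated (0.27, adjusted p = 0.086). Within a mouse, the log2 signal of C1qb minus that of C1qa was 0.70 ± 0.07 (SD, n = 6) in fish oil-fed conventional mice, with a range from 0.61 to 0.81, and 1.26 ± 0.29 in lard-fed conventional mice, from 0.87 to 1.71. In germ-free mice it was 0.93 ± 0.15 with fish oil, from 0.83 to 1.23, and 1.81 ± 0.12 with lard, from 1.66 to 1.97. The diets did not overlap in this difference in either status, so the chains of 1 protein changed unequally on the array; levels of different probe sets are not comparable, and this difference was given no test. C1qc minus C1qa was 0.52 ± 0.14 and 0.53 ± 0.25 with fish oil, and 0.86 ± 0.16 and 1.06 ± 0.10 with lard, in conventional and germ-free mice.

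The receptors had the largest diet differences of the 7 genes in conventional mice. C5ar1, which encodes the receptor for the C5 fragment C5a, ranged from 9.30 to 10.04 (median 9.69) in fish oil-fed conventional, from 9.45 to 10.73 (10.15) in germ-free mice on fish oil, from 10.58 to 11.74 (10.92) in conventional mice on lard and from 10.98 to 11.55 (11.13) in germ-free mice on lard. Lard-fed conventional mice 5 and 6 had the highest values of all, 11.72 and 11.74. It was 2.70-fold higher with lard in conventional mice, a log2 difference of 1.43 ± 0.20 (1.01 to 1.85; limma adjusted p = 8.4e-06), and 2.12-fold higher in germ-free mice, 1.09 ± 0.20 (0.67 to 1.502; 0.00013). C3ar1, which encodes the receptor for the C3 fragment C3a, ranged from 10.40 to 11.47 (median 10.62), from 11.36 to 12.07 (11.51), from 11.61 to 12.70 (12.05) and from 12.20 to 12.95 (12.61) in the same order of groups. Its 4 groups stood in this order by mean, with neighbouring ranges that overlapped. The diet difference of C3ar1 was 1.37 ± 0.19 (0.97 to 1.77; limma adjusted p = 9.2e-06), or 2.58-fold, in conventional mice and 1.00 ± 0.19 (0.60 to 1.40; 0.00021), or 2.00-fold, in germ-free mice.

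The enzyme components C4b and Cfb differed by diet in conventional mice and did not pass the threshold in germ-free mice. C4b, which encodes complement C4, ranged from 11.02 to 11.46 (median 11.33) in fish oil-fed conventional mice. In the other groups it lay from 11.60 to 11.84 (11.76) with fish oil in germ-free mice, from 11.57 to 11.93 (11.83) with lard in conventional mice and from 11.75 to 12.02 (11.78) with lard in germ-free mice. Those 3 groups overlapped with each other, and none overlapped with the fish oil-fed conventional mice. The diet difference of C4b was 0.52 ± 0.07 (0.36 to 0.67; limma adjusted p = 9.5e-06), or 1.43-fold, in conventional mice and 0.11 ± 0.07 (-0.04 to 0.26; 0.22) in germ-free mice. Cfb, factor B, ranged from 10.64 to 11.27 (median 10.94), from 11.02 to 11.30 (11.11), from 11.12 to 11.49 (11.28) and from 10.87 to 11.37 (11.06) in fish oil-fed conventional, fish oil-fed germ-free, lard-fed conventional and lard-fed germ-free mice. All 4 groups overlapped. Cfb was higher with lard by 0.35 ± 0.09 (0.15 to 0.54; limma adjusted p = 0.0061) in conventional mice, and its difference was -0.03 ± 0.09 (-0.23 to 0.16; 0.78) in germ-free mice. C4b and C4a are near-identical neighbours whose probes may bind either transcript, so the C4b values may hold part of the C4a signal.

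Macrophage transcripts moved with diet as well. The mean of 12 macrophage markers, all of them measured, was 10.26 and 10.55 log2 with fish oil and 11.08 and 11.26 with lard, in conventional and germ-free mice. By mouse it ran from 10.09 to 10.60, from 10.23 to 10.83, from 10.77 to 11.46 and from 10.99 to 11.51 in fish oil-fed conventional, fish oil-fed germ-free, lard-fed conventional and lard-fed germ-free mice. With lard 11 of the 12 rose and none fell in conventional mice, and 10 rose and 1, Mertk (-0.28), fell in germ-free mice. Adgre1, a defining macrophage surface marker, averaged 10.20 and 10.38 with fish oil and 11.58 and 12.14 with lard. The mean of 12 mature adipocyte markers was 12.85 and 12.82 with fish oil and 12.49 and 12.54 with lard. With lard 10 of the 12 fell in conventional mice and 8 in germ-free mice, and 1 rose in each. Mesothelial markers fell in 8 and 6 of 10, and none rose. Adipose progenitor markers rose in 3 and 6 of 10, and none fell. Neutrophil markers (10 genes) had means of 6.13, 6.11, 6.05 and 5.81 in the same order of groups; 2 rose (S100a8 and Csf3r) and 3 fell (S100a9, Cxcr2 and Elane) with lard in conventional mice, and 5 of them fell in germ-free mice (S100a9, Camp, Retnlg, Cxcr2 and Elane). Of all 19938 genes 3102 fell with lard in conventional mice and 5396 in germ-free mice. S100a8, an abundant neutrophil transcript, averaged 6.69 and 6.55 with fish oil and 8.03 and 7.01 with lard. The part of any of these in the diet differences was not tested. The macrophage mean did not overlap between the diets in either status, so a fit with it as a covariate cannot separate it from diet. With the macrophage mean as a covariate in the fit, 1 of the 7 genes passed in conventional mice, C4b (0.47, limma adjusted p = 0.037), and 1 passed in germ-free mice, C1qb (0.43, 0.026); over all genes the calls went from 6178 to 637 and from 9468 to 1706. The conventional values then were -0.015 for C1qa, 0.26 for C1qb, -0.012 for C1qc, 0.20 for C3ar1, 0.21 for C5ar1 and 0.40 for Cfb, whose value without the covariate was 0.35. In germ-free mice they were -0.20 for C1qa, 0.03 for C1qc, -0.018 for C3ar1 and 0.02 for C5ar1.

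With the liver mean as a covariate all 7 passed in conventional mice and C1qb alone in germ-free mice (0.94, limma adjusted p = 0.012), where the calls over all genes went from 9468 to 6480. In germ-free mice the values then were 0.81 for C3ar1 (limma adjusted p = 0.06), 0.70 for C5ar1 (0.099), 0.37 for C1qc (0.28) and 0.12 for C1qa (0.65). The liver mean did not overlap between the diets in germ-free mice, nor between conventional and germ-free mice on fish oil. Fits with it as a covariate cannot separate it from diet or status there.

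**Figure D2:**
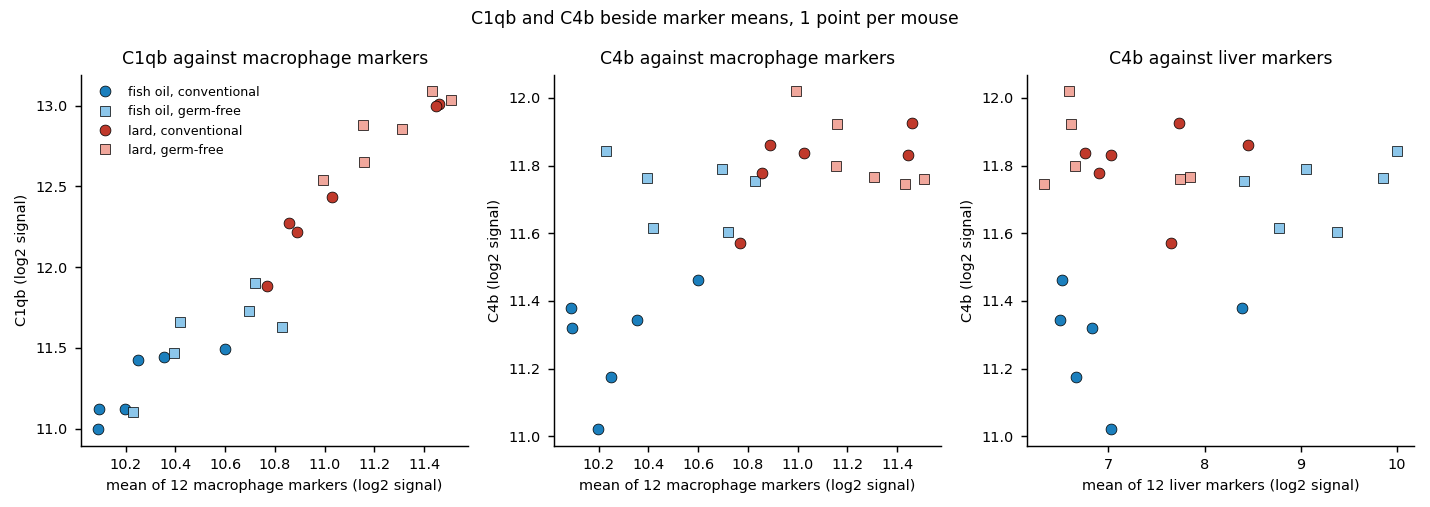
C1qb against the mean of 12 macrophage markers (left), C4b against the same mean (middle) and C4b against the mean of 12 liver markers (right), 1 point per mouse, all in log2 signal, coloured by group. C1qb is high where the macrophage mean is high, up to 13.09, whereas C4b is at or below 11.46 in the 6 fish oil-fed conventional mice and between 11.57 and 12.02 in all others, whose macrophage means run from 10.23 to 11.51.

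The second question was whether bacterial status changed these transcripts on each diet. With fish oil, 2 of the 7 were lower in conventional than in germ-free mice, C4b and C3ar1; 12.4% of all genes passed, 5.21% with conventional mice lower. The median difference was -0.32 over the 7 genes and -0.01 over all genes. C4b was lower by 0.44 ± 0.07 in conventional mice (log2 difference -0.44; -0.60 to -0.29; limma adjusted p = 0.00049), with no overlap between the groups, as held for 7.03% of all genes (3.22% with conventional mice lower). C3ar1 differed by -0.83 ± 0.19 (-1.23 to -0.43; limma adjusted p = 0.0064), and fish oil-fed conventional mouse 1, at 11.47, lay among the germ-free mice. C5ar1 differed by -0.48 ± 0.20 (-0.90 to -0.06; limma adjusted p = 0.12), C1qb by -0.32 ± 0.16 (-0.65 to 0.02; 0.22) and Cfb by -0.19 ± 0.09 (-0.39 to 0.00; 0.19), none of which passed. The C5ar1 difference passed without fish oil-fed germ-free mouse 1 (-0.62, limma adjusted p = 0.042) and without lard-fed conventional mice 5 and 6 (-0.48, 0.042). C1qa and C1qc differed by -0.09 each, with intervals from -0.35 to 0.17 and from -0.46 to 0.27. The liver transcripts given above were higher in fish oil-fed germ-free than in fish oil-fed conventional mice, 11 of 12 past the threshold. Macrophage markers were also higher in these germ-free mice, 6 of 12 past the threshold and none in the other direction. The same held for 7 of 9 markers of lipid-associated macrophages. The part of any of these transcripts in this comparison was not tested. C4b kept its call with the liver mean as a covariate (-0.44, limma adjusted p = 0.034) and with the macrophage mean (-0.43, 0.0013), whereas C3ar1 did not pass with the liver mean (-1.03, 0.053). C4b in fish oil-fed conventional mouse 6, whose liver mean was 8.38, was 11.38, inside the range of its group.

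With lard, none of the 7 genes passed by limma in conventional against germ-free mice, where 16.3% of all genes passed; 2 had an unadjusted p under 0.05, C1qb and C3ar1. The median difference was -0.04 over the 7 genes and 0.02 over all genes, and all 7 overlapped, whereas 4.15% of all genes did not. C3ar1 differed by -0.47 ± 0.19 (-0.87 to -0.07; limma adjusted p = 0.11) and C1qb by -0.37 ± 0.16 (-0.71 to -0.04; 0.13). Lard-fed conventional mice 5 and 6, with high macrophage transcripts, were the 2 highest of their group for both. Both genes passed when either mouse was left out, and without both mice C1qb differed by -0.64 (limma adjusted p = 0.0014) and C3ar1 by -0.75 (0.0035). Leaving out the highest mice of the group with the lower mean enlarges a difference in any case. These fits are therefore no test of a status difference. For C4b the difference with lard was -0.04 ± 0.07 (-0.19 to 0.12; limma adjusted p = 0.82), and for Cfb it was 0.19 ± 0.09 (-0.01 to 0.38; 0.2). C1qa, C1qc and C5ar1 differed by 0.19 (-0.07 to 0.45), -0.01 (-0.38 to 0.35) and -0.14 (-0.55 to 0.28).

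The interaction asks whether the diet difference itself depended on bacterial status, as the difference in conventional mice minus that in germ-free mice. Of the 7 genes only C4b passed, with 0.41 ± 0.10 (0.19 to 0.62; limma adjusted p = 0.018); 7.20% of all genes passed, 2.81% in that direction. The median was 0.34 over the 7 genes and 0.04 over all genes. Cfb had a similar value, 0.38 ± 0.13 (0.11 to 0.66; limma adjusted p = 0.083), which did not pass. The interaction was 0.36 ± 0.27 (-0.20 to 0.93) for C3ar1 and 0.34 ± 0.29 (-0.24 to 0.93) for C5ar1. For C1qa it was 0.27 ± 0.18 (-0.10 to 0.64), for C1qc 0.08 ± 0.25 (-0.44 to 0.60) and for C1qb -0.06 ± 0.23 (-0.53 to 0.42), and each of these 5 intervals included 0. Without the 3 lard-fed germ-free mice with the highest intestinal means, the C4b value no longer passed (0.39, limma adjusted p = 0.13), nor did it with the liver mean as a covariate (0.40, 0.099). The call of Cfb was gained without lard-fed conventional mice 5 and 6 (0.43, limma adjusted p = 0.044), without fish oil-fed conventional mouse 1 (0.45, 0.032) or without lard-fed germ-free mouse 6 (0.43, 0.039).

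**Figure D3:**
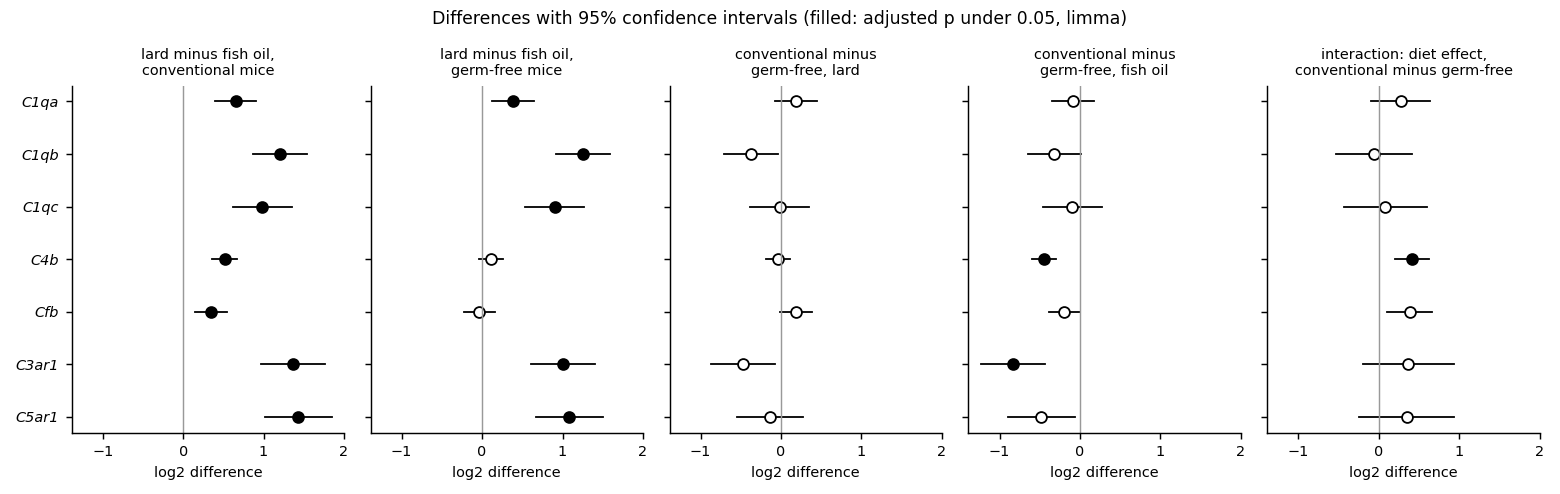
Log2 differences of the 7 measured complement genes with 95% confidence intervals in the 5 comparisons, filled where the limma adjusted p was under 0.05. All 7 are filled for diet in conventional mice and 5 in germ-free mice, and C4b alone is filled in the interaction, at 0.41.

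Another 42 complement genes, listed by role, were measured; Cfd and C1rb were not analysed here. With lard 9 of the 42 were higher and 3 lower in conventional mice, so that 28.6% passed against 31.0% of all genes. In germ-free mice 10 were higher and 15 lower, or 59.5% against 47.5% of all 19938 genes (4072 higher and 5396 lower). Conventional against germ-free mice, 2 were higher (Cd59b and C1qbp) and 1 lower (Itgb2) on lard, or 7.14% against 16.3%. On fish oil the same 2 were higher and 16 lower, or 42.9% against 12.4%. Without germ-free mice 2, 4 and 5 on lard, the calls on lard ended for C1qbp (limma adjusted p = 0.12), Itgb2 (0.17) and Cd59b (0.094). In the interaction 10 passed, all with positive values, or 23.8% against 7.20%. Among 13 initiation genes of the classical and lectin pathways, 1 rose and 2 fell with lard in conventional mice, and 1 rose (C1s2, 0.28) and 6 fell in germ-free mice. C2, which with C4 forms the classical enzyme that splits C3, fell with lard in both, by 1.10 ± 0.13 (SE; limma adjusted p = 9e-07) in conventional and by 1.09 ± 0.13 (8.8e-07) in germ-free mice. Masp1, a protease of the lectin pathway, fell by 0.70 and 0.58 (limma adjusted p = 2.6e-05 and 0.00017) in the same order. With the macrophage covariate C2 did not pass in conventional mice (-0.48, limma adjusted p = 0.078). Masp1 then passed in neither conventional nor germ-free mice (-0.42 and -0.33, limma adjusted p = 0.18 and 0.2). With the liver covariate Masp1 did not pass in germ-free mice (-0.38, limma adjusted p = 0.099). C4a, the close copy of C4b, differed with lard by 0.42 (limma adjusted p = 0.00058) in conventional and 0.16 (0.14) in germ-free mice. Between conventional and germ-free mice on fish oil C4a differed by -0.27 (limma adjusted p = 0.045). With the macrophage covariate neither C4a call was kept (0.21 and -0.19, limma adjusted p = 0.46 and 0.16). Properdin, encoded by Cfp, which stabilises the enzyme that factor B forms, rose with lard by 0.87 (limma adjusted p = 1.4e-07) and 0.48 (0.00012) in conventional and germ-free mice. The germ-free value of Cfp did not pass with the liver covariate (0.26, limma adjusted p = 0.15) or the macrophage covariate (0.22, 0.28).

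The 7 terminal pathway genes, whose products build the pore that complement forms in membranes, included none that passed for diet in conventional mice. By limma, none of them had an adjusted p under 0.05 there, and 0 of 7 had an unadjusted p under 0.05. In germ-free mice 5 fell with lard, as did 5396 of all 19938 genes, and C7 rose (1.24 ± 0.30, limma adjusted p = 0.0017). The C7 call ended when germ-free mice 2, 4 and 5 on lard were left out (1.00, limma adjusted p = 0.052). It also ended with the macrophage covariate (0.22, limma adjusted p = 0.78). C8b, a chain of C8, fell by 1.02 ± 0.12 (limma adjusted p = 9.1e-07) in germ-free mice and differed by -0.08 in conventional mice. Hc, the gene of C5, differed by -0.78 in germ-free and 0.07 in conventional mice. The same 5 genes, Hc, C8a, C8b, C8g and C9, were lower in conventional than in germ-free mice on fish oil and passed in the interaction. The liver transcripts were highest in the same group, fish oil-fed germ-free mice, in which 11 of 12 were higher than with lard. With the liver mean as a covariate, Hc, C9, C8g and C8a did not pass for diet in germ-free mice (-0.12, -0.16, -0.17 and -0.21, limma adjusted p from 0.13 to 0.55). C8b kept its call there, and C8g then passed in conventional mice (-0.28, limma adjusted p = 0.03). Between conventional and germ-free mice on fish oil, none of the 5 genes passed with the liver covariate. The values were -0.385 for C8b (limma adjusted p = 0.2), -0.08 for Hc (0.76), -0.08 for C9 (0.76), 0.05 for C8g (0.86) and -0.08 for C8a (0.67).

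Among 13 regulators, 2 rose with lard in conventional mice, Serping1 and Cd59a, and none fell; that is 15.4% of them, the share of all genes that rose. Serping1, which encodes the C1 inhibitor, rose by 0.66 ± 0.09 (limma adjusted p = 4.4e-06) in conventional and by 0.35 ± 0.09 (0.0022) in germ-free mice. The germ-free value was 0.03 (limma adjusted p = 0.88) with the liver covariate and 0.10 (0.67) with the macrophage covariate, with which the conventional value was 0.37 (0.12). Cd59a, a membrane protein that blocks the pore, rose by 0.52 and 0.49 (limma adjusted p = 3.6e-05 and 5e-05). The related gene Cd59b did not pass for diet. It was higher in conventional than in germ-free mice, by 0.52 on lard (limma adjusted p = 0.038) and 0.52 on fish oil (0.045). Whether probes of either gene bind both transcripts was not tested. Both Cd59b calls ended with mouse number as a block (limma adjusted p = 0.055 and 0.063) and with the macrophage covariate (0.089 and 0.18). The call on lard also ended with arrays centred (0.051) or only the groups compared (0.1), and that on fish oil with quantile normalization repeated (0.056) or the liver covariate (0.32), all by limma. C4bp, which limits the classical enzyme, and Vtn, vitronectin, fell with lard in germ-free mice by 0.91 and 0.56 (limma adjusted p = 2.7e-05 and 0.00024). The liver transcripts were high in the same fish oil-fed germ-free mice, and with their mean as a covariate C4bp differed by -0.20 (limma adjusted p = 0.36) and Vtn by -0.45 (0.063). Of 8 further receptors, 5 rose with lard in both kinds of mice. These were C5ar2, the other C5a receptor (1.19 and 1.39 in conventional and germ-free mice), the integrin chains Itgam (1.19 and 1.25), Itgax (1.93 and 1.35) and Itgb2 (1.33 and 1.17), which form the receptors for split C3, and Cd93 (0.79 and 0.29). Most macrophage markers also rose, and with their mean as a covariate Cd93 alone of the 5 passed in conventional mice and none in germ-free mice. The values then were 0.11 and 0.45 for C5ar2, 0.14 and 0.33 for Itgam, 0.23 and -0.14 for Itgax, 0.37 and 0.32 for Itgb2, and 0.06 for Cd93 in germ-free mice, where its call also ended with quantile normalization repeated (0.19, limma adjusted p = 0.12). C1qbp, a C1q-binding protein found mainly in mitochondria, fell by 0.27 and 0.17, the latter no longer past the threshold with arrays centred (-0.15, limma adjusted p = 0.078).

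**Figure D4:**
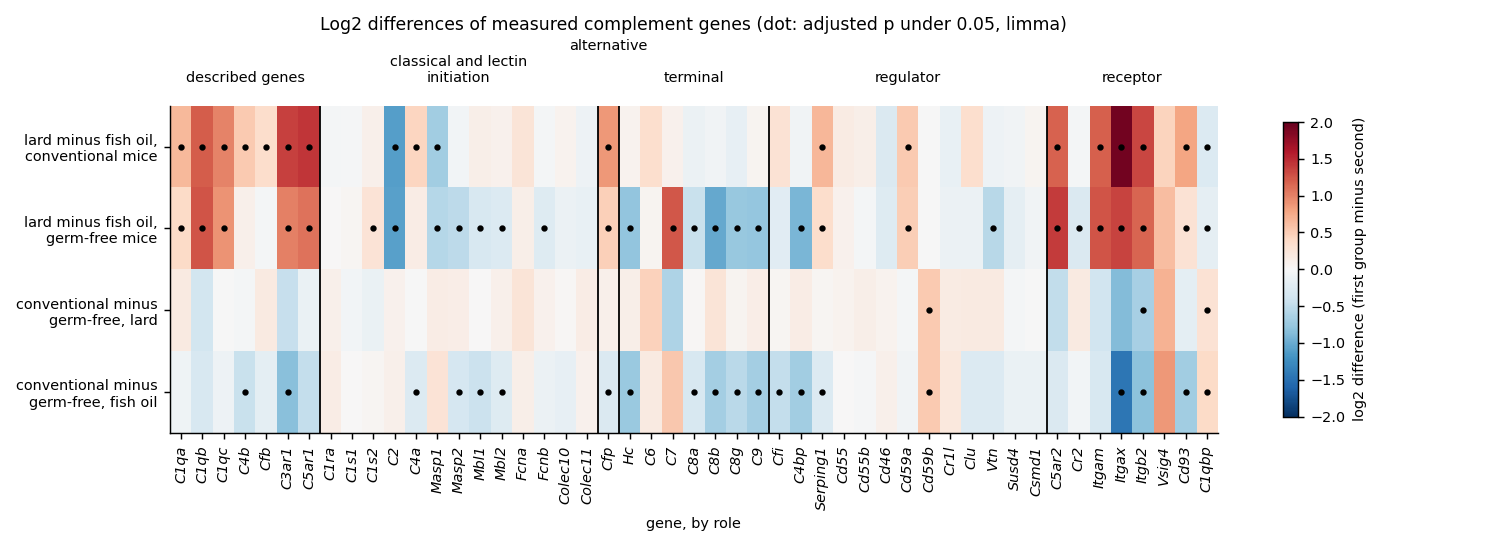
Log2 differences of the 7 described genes and 42 other complement genes in 4 comparisons, grouped by role (red, first group higher; blue, lower; dot, limma adjusted p under 0.05). C3ar1, C5ar1, the C1q chains and 5 of the 8 further receptors are red with a dot in both diet rows, and 5 of 7 terminal pathway genes carry a blue dot in germ-free mice and none in conventional mice.

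Over the 24 mice as measured, C4b correlated with C3ar1 at Pearson r = 0.80 and with Cfb at 0.62, and C1qa with C3ar1 at 0.76, values that include the differences between groups. After the group means were subtracted, the 3 C1q chains correlated with each other at Pearson r from 0.81 to 0.88. C5ar1 correlated with them at 0.73 to 0.87 and C3ar1 at 0.67 to 0.76, and the receptors correlated with each other at 0.86 (Spearman rho 0.84). C4b and Cfb correlated with each other at 0.47 (rho 0.47) and with the C1q chains at -0.12 to 0.10, and with the receptors at -0.20 to 0.29. These values describe 24 mice that share array, tissue mixture and diet, and no p-value is attached. Genes most like each member over the 24 mice were, for C3ar1, Adam8 (r = 0.99), Lgmn (0.99) and Tlr13 (0.99), and for C5ar1 Cxcl16 (0.99), Clec12a (0.98) and P2ry6 (0.98). For C1qb they were Prcp, Ctsh and Stard8 (0.98 each), for C1qc Fcgr1 (0.97), Tubb6 (0.96) and Folr2 (0.95), and for C1qa Pafah1b3 (0.95), Clic1 (0.94) and Folr2 (0.94). C4b and Cfb had no gene as close: Mpeg1, Tcirg1 and F7 reached 0.87 each with C4b, and Ccdc6 (0.88), C1qtnf1 (0.85) and Napsa (0.83) were nearest to Cfb. After subtraction of group means Lgmn, Adam8 and Tlr13 were nearest to C3ar1 (0.96 to 0.97), whereas the nearest to C4b was Endov at 0.68.

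**Figure D5:**
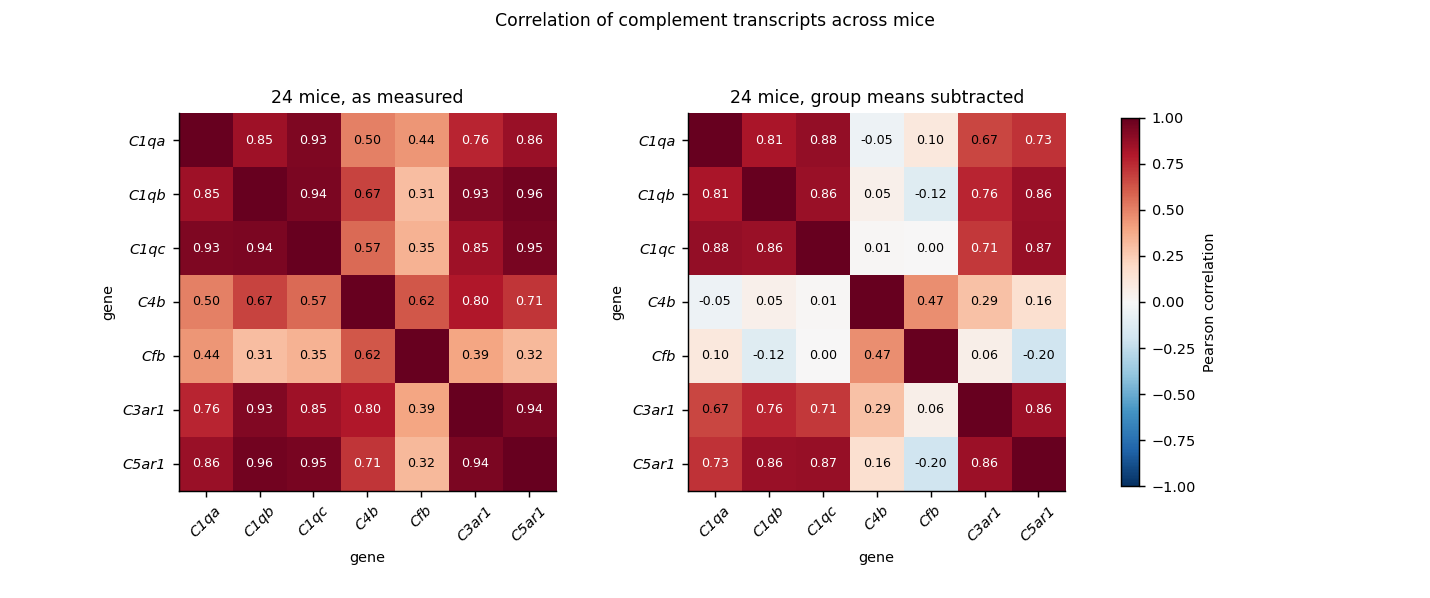
Pearson correlations between the 7 genes over 24 mice, as measured (left) and after each group's mean was subtracted (right). The C1q chains and both receptors form a block with values from 0.67 to 0.88 on the right, and C4b and Cfb lie outside it.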

How the data were processed

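RNA of 24 mice was measured with 1 one-colour Affymetrix array each. The deposited log2 values were made by RMA, per the submitters' processing notes. RMA normalizes quantiles between arrays, which limits global shifts, and low signals are compressed. Array medians still differed by group. They were highest, 7.17 to 7.20, for the germ-free group given fish oil. The medians were lower, without overlap, for conventional mice given fish oil (7.10 to 7.13) and lard-fed germ-free mice (7.09 to 7.14). Lard-fed conventional mice had medians from 7.09 to 7.18. The RMA version is not given in the sources used here, nor is any array batch or scan date. Probe sets were named by the platform annotation: of 35556, 21789 had 1 symbol, 1621 several and 12146 none. Of the 21789, 21698 were found by Entrez ID in a RefSeq gene table (GRCm38.p6, for names only). The probe set with the highest mean stood for its gene.

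Differences of group means were fitted to all 24 arrays with limma 3.58.1 (lmFit and eBayes, R 4.3.3), two-sided, with Benjamini-Hochberg adjustment over 19938 genes in each of the 5 comparisons and a threshold of 0.05. The fit was tested on simulated data. Of the other complement genes, up to 5 per role that passed in a comparison are named, by the size of their largest change; the rest enter the counts only, except C8a, C1qbp, C1s2 and the neutrophil and macrophage markers given with a count, which were named after their values were seen. The rule also named Cfd, which was not analysed here. Genes most alike are the 3 with the highest Pearson correlation. Members and lists were chosen with earlier results of these data known. Alternatives were other scalings, a low-value filter, averaged probe sets per gene, array weights, other eBayes priors, fits of only the groups compared, a replicate block, mice left out, marker means as covariates and a 1.5-fold minimum. Promoters were searched with python 3.11.15. The number of arrays limits the precision.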

Additional observations from a re-analysis of the deposited data

Results flagged for a closer look

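The diet difference differed by bacterial status, by the interaction term in limma, for C4b and for 9 of the other complement genes named in the text. For C4b the value was 0.41 (adjusted p = 0.018); fish oil-fed conventional mice averaged 11.28 log2 and the other groups from 11.73 to 11.84. In the initiation genes it was 0.46 for Masp2 (0.03) and 0.45 for Mbl1 (0.012), 2 genes of the lectin pathway. In the terminal pathway it was 0.94 for C8b (0.0025), 0.86 for Hc (0.0085), 0.81 for C9 (0.0079) 0.59 for C8g (0.048) and 0.34 for C8a (0.048). C4bp had 0.84 (adjusted p = 0.015) and the receptor gene Cd93 had 0.50 (0.023). The mean of the liver markers was 6.96 to 7.42 in the other groups and 9.24 in germ-free mice on fish oil. With that mean as a covariate the interaction was 0.40 for C4b (limma adjusted p = 0.099), 0.27 for Masp2 (0.34), 0.36 for Mbl1 (0.14), 0.59 for C8b (0.12), 0.066 for Hc (0.85), 0.089 for C9 (0.78), -0.11 for C8g (0.74), 0.054 for C8a (0.82) and -0.0097 for C4bp (0.98). The Cd93 call alone of the 10 was kept (0.75, limma adjusted p = 0.014). Without lard-fed germ-free mice 2, 4 and 5 it ended as well (0.48, limma adjusted p = 0.13). So did those of C4b (0.13), Masp2 (0.13), Mbl1 (0.11), C9 (0.054), C8g (0.19), C4bp (0.084) and C8a (0.17). C8b and Hc kept theirs in that fit, where all-gene calls went from 1435 to 225. With arrays centred, C8g (limma adjusted p = 0.074) and C8a (0.11) did not pass. No mouse lay apart from its group by Dixon's criterion in the 28 sets of a described gene and a group.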

How the results depend on the processing

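Over 35 values (7 genes in 5 comparisons) and their alternatives, 1282 of 1323 values kept their side of the threshold. Another 21 lost a call and 16 gained one with the same sign, and 4 changed sign and lost a call. Changes of sign among values that passed in neither fit were counted with the 1282. Diet in conventional mice: 7 genes passed under every alternative except the macrophage covariate (1) and the 1.5-fold minimum (5). Diet in germ-free mice: 5 passed, 1 with the liver covariate, 1 with the macrophage covariate, 4 with repeated quantile normalization, 4 with the 1.5-fold minimum, and 4 to 5 with single mice left out. Status with lard: 0 passed, 2 with array weights, 2 without lard-fed conventional mice 5 and 6, 1 with the macrophage covariate (C1qa, 0.34), and 0 to 2 with single mice left out. Status with fish oil: 2 passed, 1 with the liver covariate, 1 with the 1.5-fold minimum, 3 without conventional mice 5 and 6 on lard, and 2 to 3 with single mice left out. Interaction: 1 passed, 2 with repeated quantile normalization, array weights or without lard-fed conventional mice 5 and 6, 0 with the liver covariate, the 1.5-fold minimum or when germ-free mice 2, 4 and 5 on lard were left out, and 1 to 2 with single mice left out. The cause was not tested.

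Changes of sign are given here only for values that passed in the main fit or in the alternative. With the macrophage covariate the sign turned for diet in conventional mice in C1qa (-0.015) and C1qc (-0.012). In germ-free mice it turned in C1qa (-0.20), C3ar1 (-0.018) and Itgax (-0.14). With the liver covariate it turned for status with fish oil in C8g (0.050) and C4bp (0.0083), and for the interaction in C8g (-0.11) and C4bp (-0.0097). These covariates themselves differ between groups.

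Deviations of same-numbered mice from their group means correlated from -0.50 to 0.35 in 36 pairs, 9 of them over 0.1. Mice with different numbers were not compared, so whether the numbers pair the mice was not tested. With mouse number as a replicate block 7, 5, 0, 2 and 1 genes passed in the 5 comparisons, and 6020, 9253, 2968, 2294 and 1131 of all genes. Of the other genes named, it ended both Cd59b calls, those of Cfp (adjusted p = 0.061) and Serping1 (0.065) for status with fish oil, and the interactions of Masp2 (0.056) and C8a (0.062). Over all genes, centring each array on its median moved the split of higher and lower calls from 3076 and 3102 to 2641 and 4271 for diet in conventional mice. It moved from 1749 and 1491 to 1388 and 1913 for status with lard, from 1425 and 1039 to 1935 and 850 for status with fish oil, and from 561 and 874 to 365 and 1422 for the interaction; the counts of the 7 genes stayed at 7, 5, 0, 2 and 1. Without the same 3 germ-free mice, all-gene calls for status with lard went from 3240 to 177. Leaving out fish oil-fed conventional mouse 6 and lard-fed conventional mouse 1, chosen after seeing the data for their liver means, gave 7, 5, 0, 2 and 1 genes.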
